A study of Mus musculus with 31 samples.

Results

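Receptors for glutamate, GABA and glycine carry most fast signalling between neurons of the brain, and 39 genes for them, chosen by name, were followed through a comparison of neural culture with cortex. A gene was a member if it lay on an autosome and its symbol began with Gria, Grik, Grin, Grid, Grm, Gabra, Gabrb, Gabrg, Gabrd, Gabbr, Glra or Glrb followed by the subunit's number or letter, and these 39 are among 17484 features in the deposited tables. They comprised 3 AMPA, 5 kainate, 6 NMDA and 2 delta receptor subunits, 7 metabotropic glutamate receptors, 11 GABA A and 2 GABA B receptor subunits and 2 glycine receptor subunits, and 1 gene caught by its name alone. That gene, Grid2ip, encodes a protein that binds a delta receptor and is not a subunit. A further 3 genes of the same name pattern lie on the X chromosome and were left out.

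The study sequenced polyadenylated RNA of mice and cells with 1 parent of strain C57BL/6J (B6) and 1 of strain JF1, and it counted, at each base where the strains differ, how often a read carried the maternal or the paternal base. In the cross called BJ1 the mother was B6, and in JB6 the mother was JF1. Male hybrid embryonic stem cells (ESCs), and the same lines after 12 and 21 days of cortical differentiation in defined medium, gave 4 libraries per stage, 2 per cross. Cells received the Hedgehog pathway inhibitor cyclopamine at 1 µM from day 2 to day 10. Hybrid embryos at E13.5 gave 6 libraries and newborns at P0 gave 7, of which 11 of 13 were from females. In culture each cross was 1 line, so line and cross cannot be told apart, and the B6 parent of those lines carried GFP under the Oct4 promoter and, per the authors' notes, traces of CBA sequence, whereas the cortex came from a B6 parent without that label. The embryonic samples carry the tissue code DT, and those of newborns Ctx. The labels do not say whether replicates are separate animals or cultures, so p-values measure the spread between these libraries, which may be technical.

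AMPA, kainate and NMDA receptors are cation channels opened by glutamate, each built of subunits of its own family, and they drive fast excitatory transmission. Delta receptors belong to the same family by sequence, and the metabotropic glutamate receptors act through G proteins. GABA A and glycine receptors are chloride channels, and GABA B receptors act through G proteins as pairs of Gabbr1 and Gabbr2. In the developing cortex these genes are switched on as progenitors become neurons and neurons form synapses, and many of them carry sites for REST, a repressor of neuronal genes in other cells.

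Promoter sequence was at hand for 25 of the 39 members, from RefSeq's table on the build GRCm38.p6, as the 250 bases before each annotated start. The expression files use mm9, so no position of theirs is set against these. A run of letters that forms the core of 1 side of the REST site, GGACAG, and the GC box GGGCGG, a site for SP1 and its relatives, were searched on both strands, and they do not overlap each other in the letters. GGACAG was found in 18.7% of all 32851 windows and in a window of 12 of the 25 members. GGGCGG was found in 32.7% of all windows and in a window of 15 of the 25. The 25 members have 32 windows, and a member counts if any of its windows holds the letters. The member counts are therefore not in the same unit as the shares of windows. The 5 windows below belong to members that the results turn on. They are Gria2, which differed most between culture and cortex, Grin1, the obligatory NMDA subunit, Glrb, which rose between ESCs and day 12, and Gabbr1 and Grik3, the members with most read bases in ESCs. Letters are 5′ to 3′ on the gene's strand and capitals mark GGACAG or GGGCGG in either orientation.
Gria2: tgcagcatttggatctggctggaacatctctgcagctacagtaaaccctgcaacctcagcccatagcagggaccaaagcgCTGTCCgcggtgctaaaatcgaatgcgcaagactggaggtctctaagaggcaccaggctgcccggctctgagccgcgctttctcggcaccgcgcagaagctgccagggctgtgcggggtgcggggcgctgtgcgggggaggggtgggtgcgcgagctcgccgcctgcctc
Grin1: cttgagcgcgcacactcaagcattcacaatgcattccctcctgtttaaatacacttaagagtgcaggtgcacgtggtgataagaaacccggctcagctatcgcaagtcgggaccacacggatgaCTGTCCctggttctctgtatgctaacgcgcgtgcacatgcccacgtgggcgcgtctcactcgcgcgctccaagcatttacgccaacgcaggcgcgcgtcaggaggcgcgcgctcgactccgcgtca
Glrb: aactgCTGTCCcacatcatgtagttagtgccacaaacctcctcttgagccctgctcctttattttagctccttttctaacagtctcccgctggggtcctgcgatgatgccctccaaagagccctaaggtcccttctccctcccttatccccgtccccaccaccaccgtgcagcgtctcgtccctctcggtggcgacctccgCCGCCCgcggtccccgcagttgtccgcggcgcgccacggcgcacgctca
Gabbr1: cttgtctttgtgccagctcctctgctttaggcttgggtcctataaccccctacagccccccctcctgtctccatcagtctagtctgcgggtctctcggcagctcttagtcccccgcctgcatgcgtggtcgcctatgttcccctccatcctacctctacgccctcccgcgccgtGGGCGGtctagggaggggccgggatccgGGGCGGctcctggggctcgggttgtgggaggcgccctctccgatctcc
Grik3: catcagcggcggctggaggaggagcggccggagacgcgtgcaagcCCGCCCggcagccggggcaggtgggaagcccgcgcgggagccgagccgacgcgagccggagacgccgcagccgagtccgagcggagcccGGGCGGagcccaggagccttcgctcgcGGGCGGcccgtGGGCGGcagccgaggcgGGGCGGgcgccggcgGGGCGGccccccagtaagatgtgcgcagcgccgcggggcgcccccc
The Gria2 window is chr3:80802836-80803085 on the minus strand, has a GC content of 64.8% and holds 1 GGACAG and no GGGCGG. The Grin1 window is chr2:25319188-25319437 on the minus strand, is 58.8% GC and also holds 1 GGACAG and no GGGCGG. The Glrb window is chr3:80913661-80913910 on the minus strand, is 62.4% GC and holds 1 of each. The Gabbr1 window is chr17:37045716-37045965 on the plus strand, is 66% GC and holds 2 GGGCGG and no GGACAG. The Grik3 window is chr4:125490446-125490695 on the plus strand, is 82% GC and holds 6 GGGCGG and no GGACAG. A match describes letters and is not a binding site.

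Levels are CPM, the usual per-library scaling of counts, here of the read bases of both alleles after TMM, the trimmed-mean scaling of edgeR. Libraries held 5192382 to 8618253 read bases. A gene's CPM depends on how many strain differences its transcript holds, from 2 to 65 among the members, so levels are compared between stages and never between genes. The tests are edgeR's quasi-likelihood test on the counts, with p-values adjusted by Benjamini-Hochberg over all features tested, and a feature was tested if the libraries of both stages together averaged 20 read bases or more. A member is called at an adjusted p of at most 0.05. Standard errors of log2 differences are approximate, and they and the differences depend on a prior count where a stage has few read bases.

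The summed level of the 39 members was lowest in day 12 culture and highest in newborn cortex. It was 189 to 228 CPM in the 4 ESC libraries, 119 to 215 at day 12 and 369 to 511 at day 21, against 456 to 773 in the 6 E13.5 libraries and 2517 to 2919 in the 7 P0 libraries. No library of day 21 culture reached the lowest P0 library, and the day 21 and E13.5 ranges overlapped. Members whose libraries averaged 20 read bases or more numbered 4 in ESCs, 7 in day 12 and 19 in day 21 culture, and 15 in E13.5 and 32 in P0 cortex. A total of 7 members stayed under that mean at all 5 stages: Gabrb1, Glra1, Grin2a, Grin2d, Grin3b, Grm4 and Grm6. In bulk samples, fewer cells of a type and less RNA per cell cannot be told apart.

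**Figure D1:**
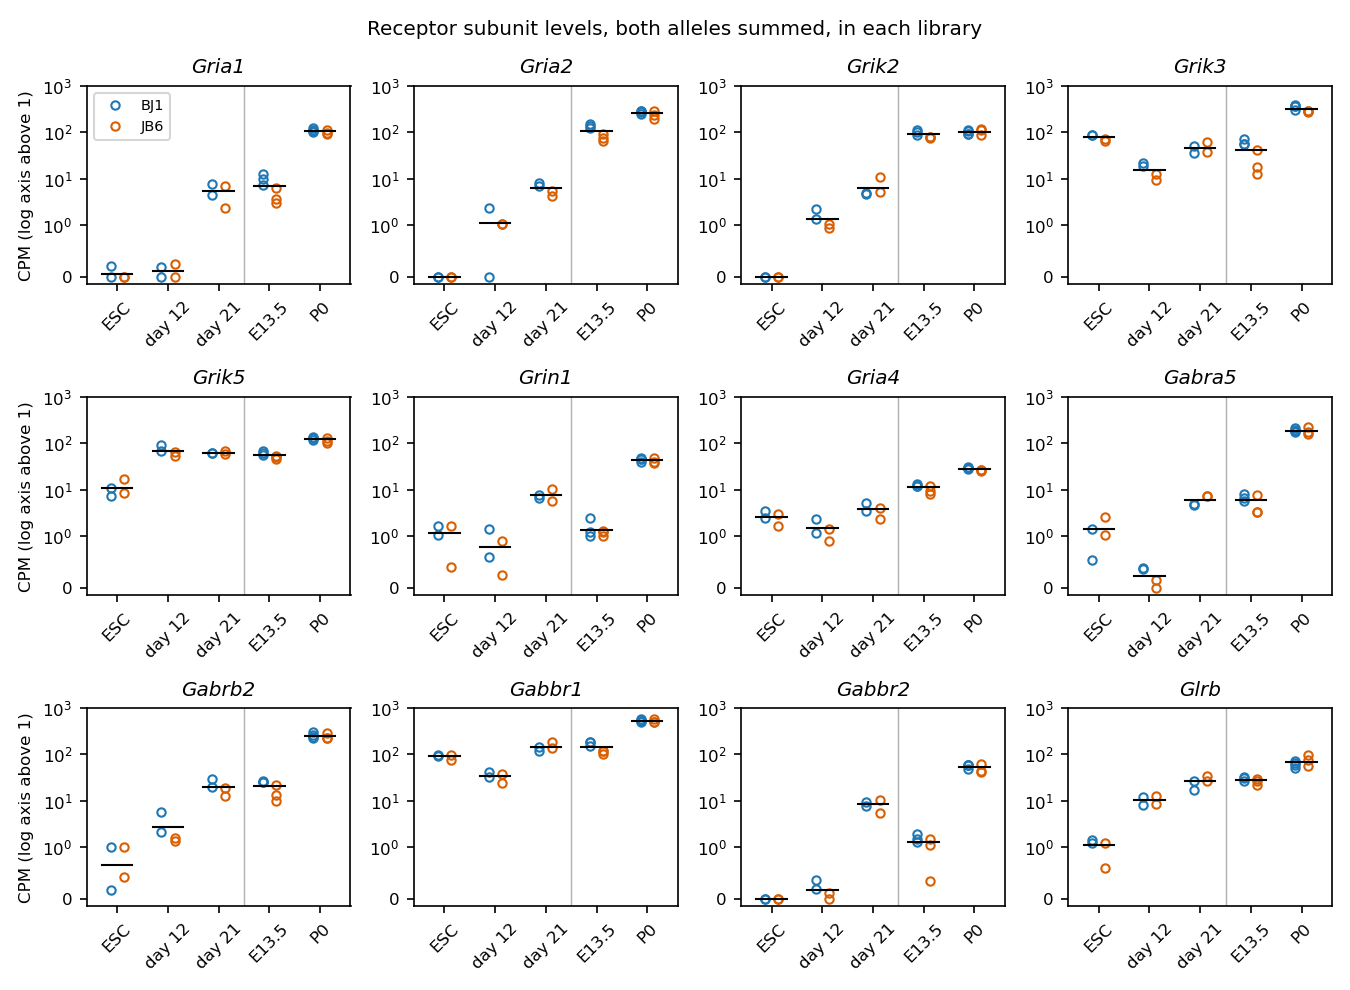
Levels of 12 members in CPM (both alleles summed; linear below 1 and a log axis above) in each library of ESCs, day 12 and day 21 culture and E13.5 and P0 cortex; circles are libraries coloured by cross and lines are means. Gria2 and Grik2 are far lower in both culture stages than in both cortex stages, whereas Grik5 at day 12 overlaps E13.5.

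At day 12, the AMPA, kainate and GABA A subunits of E13.5 cortex were mostly lower in culture. Of the 39 members 15 were tested, 13 were called lower, 0 higher and 2 were not called. Over all 10986 features tested, 42.4% were called lower and 37.2% higher. The median log2 difference was -2.97 over the members tested and -0.11 over all features. Only 6 of the 15 reached that floor at both stages, 4 of them called lower. The other 9 entered through E13.5 alone, where a member under the floor in culture had to be lower, so their count supports nothing by itself.

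Gria2, the AMPA subunit that makes the channel impermeable to calcium, differed most. Its level was 0 and 2.36 CPM in the BJ1 libraries of day 12 and 1.05 and 1.07 in the JB6 libraries, against a lowest, median and highest of 66.3, 108 and 151 at E13.5. The groups did not overlap, and the log2 difference was -6.49 (SE 0.31, adjusted p = 1.27e-14 by edgeR). Gria1, which forms calcium-permeable AMPA channels when Gria2 is missing, stood at 0, 0.181, 0 and 0.237 CPM at day 12, against 3.01, 6.77 and 12.7 at E13.5. The highest day 12 library was below the lowest E13.5 library, with a log2 difference of -5.65 (SE 0.56). Gria4, an AMPA subunit of early neurons and some interneurons, was at 1.17, 2.36, 0.898 and 1.42 against 7.92, 12.3 and 13.2, a log2 difference of -2.93 without overlap.

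The kainate subunits split. Grik2, a pore-forming kainate subunit, was at 1.37, 2.18, 1.05 and 0.948 CPM at day 12 and at 77.3, 84.3 and 112 at E13.5, with no overlap and a log2 difference of -6.05 (SE 0.27, adjusted p = 3.56e-15 by edgeR). Grik3 was lower by less, at 18.8 and 21.6 CPM in BJ1 and 9.28 and 12.6 in JB6, against 12.4, 48.5 and 70.8. At E13.5, JB6 replicates 1 and 2, at 17.6 and 12.4 CPM, lay within the culture range. JB6 replicate 3, at 42.1 CPM, and the 3 BJ1 libraries lay above it. The log2 difference was -1.41 (SE 0.29, adjusted p = 0.000103). Grik1 overlapped as well, with means of 2.9 and 6.18 CPM and a log2 difference of -1.10. It was not called with BJ1 libraries alone (adjusted p = 0.0652) or male libraries alone (0.221).

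The high-affinity subunits Grik4 and Grik5, which need a partner of the Grik1 to Grik3 type to form a channel, were not lower in culture at day 12. Grik5 stood at 67.4, 93.4, 54.5 and 64.2 CPM, and E13.5 at 45.9, 54.5 and 68.5. The groups overlapped, and the log2 difference of 0.31 (SE 0.16, adjusted p = 0.0661 by edgeR) was not called. It was called higher under 11 of 23 alternatives, among them DESeq2 (log2 difference 0.39, adjusted p = 0.0136) and upper quartile scaling (0.44, adjusted p = 0.0117), and adjusted p ranged from 0.00579 to 0.407. Grik4 had means of 4.32 ± 1.58 CPM (SD, n = 4) and 4.3 ± 0.95 (SD, n = 6), and a log2 difference of -0.04 (SE 0.27).

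GABA A channels usually hold alpha, beta and gamma subunits, and 5 of these genes were tested at this stage, all called lower. Gabrb2, the beta subunit of many synaptic receptors, was at 2.15 and 5.62 CPM in BJ1 and 1.35 and 1.54 in JB6, against 9.82, 23.3 and 26.7, and its log2 difference was -2.97 (SE 0.31, adjusted p = 2.41e-09 by edgeR). Gabra5, an alpha subunit of receptors outside synapses, was at 0.391, 0.363, 0.15 and 0 CPM against 3.27, 6.29 and 8.26, and differed by -4.79. Gabra4, another alpha subunit, was at 0.195, 0.181, 0.15 and 0.356 CPM against 5.86, 7.52 and 10.2, and differed by -4.93. None of these 3 genes overlapped between the groups.

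Of the remaining tested members at this stage, Gabbr1, the ligand-binding GABA B subunit, was at 32.1, 42.4, 24.7 and 37 CPM against 103, 135 and 184, without overlap (log2 difference -2.05, SE 0.16). Glrb, the beta subunit that ties glycine receptors to the scaffold protein gephyrin, was at 8.01, 12, 8.39 and 12.6 CPM against 21.7, 28.6 and 32.9. It also did not overlap and differed by -1.46. The other 24 members were under the floor. Among them Grm5, a group I metabotropic receptor, had no read base in the 4 day 12 libraries and 25 in all at E13.5, which is at least 5.31-fold higher in cortex with 3 read bases over the day 12 group as the floor. Grin1 was low in both, with means of 0.793 and 1.37 CPM. Grin2c and Grm4 ran the other way, at 2.8 and 2.33 CPM at day 12 against 0.283 and 0.3, from too few read bases to be tested.

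**Figure D2:**
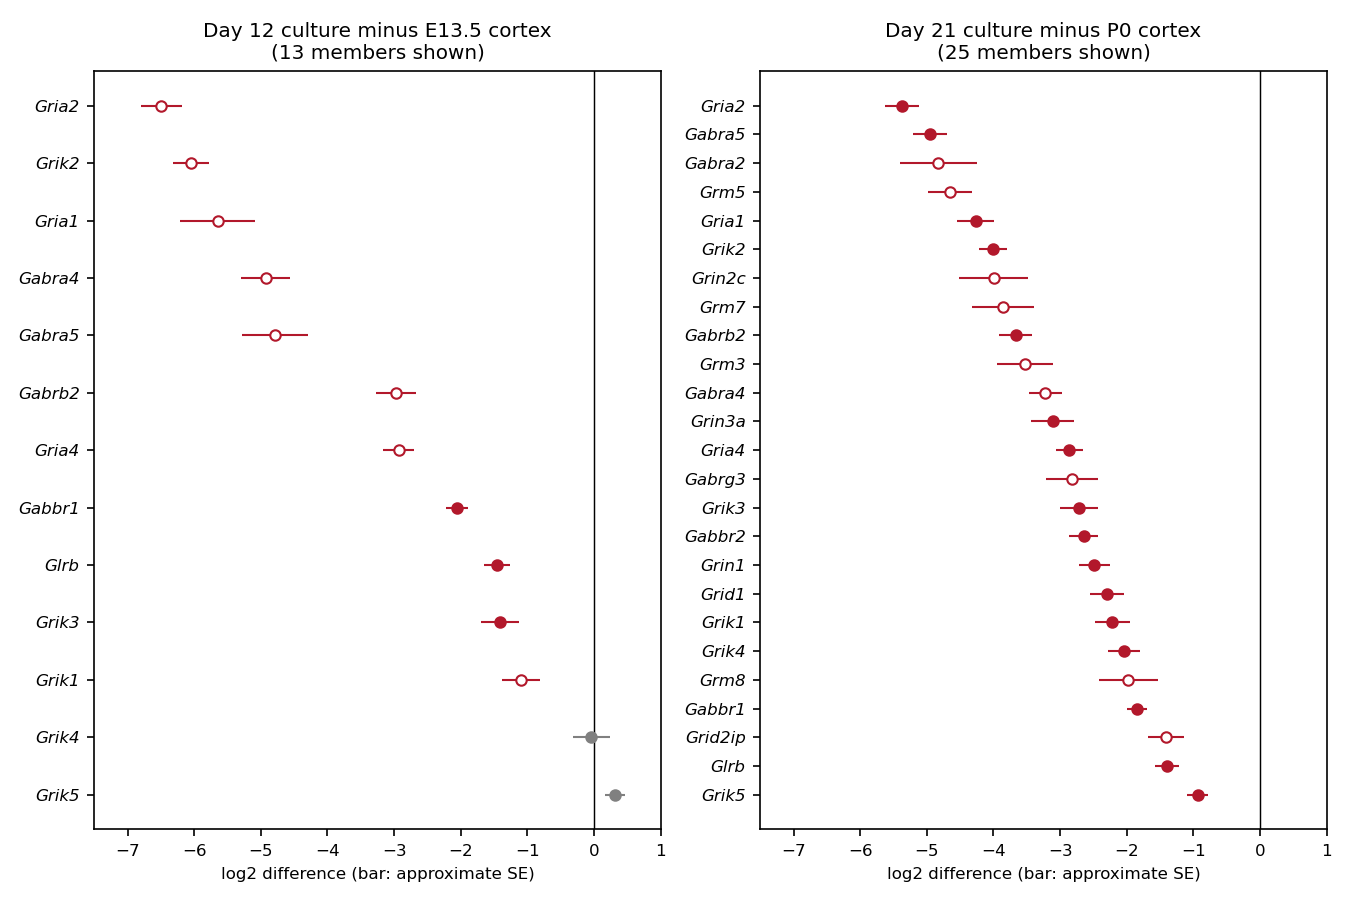
Log2 difference of culture from cortex for the members described, at day 12 against E13.5 (left, 13 members) and at day 21 against P0 (right, 25 members); bars are approximate standard errors, red is called and gray is not, and filled symbols have at least 20 read bases on average at both stages. Gria2 lies at the far end of both, and Grik5 is nearest to 0 on the right.

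Day 21 culture was lower than newborn cortex in every member tested. Of the 39 members 30 were tested and 30 were called lower. Over the 11596 features tested, 40.5% were called lower and 40.2% higher. The median log2 difference was -3.10 over the members tested and -0.02 over all features. The 19 members above the floor at both stages were all called lower, with a median of -2.86, and the other 11 were tested through P0 alone.

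Gria2 again had the largest log2 difference, -5.37 (SE 0.25, adjusted p = 5.04e-15 by edgeR). It stood at 8.18 and 6.9 CPM in the BJ1 cultures and 5.5 and 4.23 in the JB6 cultures, and at 193, 272 and 292 at P0. Its mean was thus 41.8 times higher in cortex. Gria1 was at 4.53, 7.68, 7.07 and 2.37 CPM against 92.4, 105 and 122, a log2 difference of -4.27. Gria4 differed by -2.86, with means of 3.79 ± 1.18 (SD, n = 4) and 28 ± 1.74 (SD, n = 7). The 3 AMPA genes were thus 7.39 to 41.8 times higher in newborn cortex.

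Among kainate genes, Grik2 was at 4.97, 4.69, 10.7 and 5.24 CPM against 89.6, 105 and 118, a log2 difference of -4.01. The library at 10.7 was 1 of the JB6 cultures and was still far below the lowest cortex library. Grik3 differed by -2.72, Grik1 by -2.21 and Grik4 by -2.05. Grik5 had the smallest difference of the 30, -0.93 (SE 0.16, adjusted p = 5.13e-06), with 61.8, 63, 68.9 and 59.8 CPM in culture and 103, 127 and 138 at P0.

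Grin1, the subunit every NMDA receptor needs, was at 6.72, 7.68, 10.5 and 5.75 CPM at day 21 and at 37.5, 46.5 and 48 at P0, so its mean was 5.67 times higher in cortex (log2 difference -2.48, SE 0.23). Grin3a, which lowers calcium flow through the receptor and is high in young brain, was at 3.51, 2.34, 11.1 and 3.72 CPM against 33.2, 40.6 and 54.1, and differed by -3.11. Grin2c, best known from cerebellum, was near 0 in culture, at 0.146, 0.521, 0.785 and 0 CPM, against 5.04, 5.53 and 9.02. Its log2 difference was -4.00. Grin2a, Grin2d and Grin3b were under the floor, and Grin2d was at 1.26 ± 0.398 CPM (SD, n = 4) in culture and 1.11 ± 0.431 (SD, n = 7) in cortex. Of the delta genes, Grid1 differed by -2.30. The binding protein Grid2ip differed by -1.42.

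The metabotropic receptors tested were all far lower. Grm5, a group I receptor coupled to calcium release, was at 0.876, 0.781, 0.314 and 1.18 CPM against 16.7, 20.4 and 24.3, a log2 difference of -4.66. Grm7, a presynaptic group III receptor, was at 0.876, 0.391, 1.88 and 0 CPM against 9.43, 10.8 and 14.9, and differed by -3.85. In both genes the lowest cortex library was several times the highest culture library. Grm3, a group II receptor, differed by -3.53 and Grm8, of group III, by -1.98. Grm4 and Grm6 were not tested, and Grm4 had means of 2.54 CPM at day 21 and 2.65 at P0.

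GABA A subunits were lower in culture by several-fold or more. Gabra5 was at 4.67, 4.82, 7.38 and 7.44 CPM at day 21 and at 163, 181 and 221 at P0, a log2 difference of -4.96 (SE 0.26, adjusted p = 2.67e-15 by edgeR). Gabra2, an alpha subunit of the forebrain, was at 0, 0.391, 0.314 and 0 CPM against 4.51, 4.67 and 8.6, and differed by -4.83. Gabrb2 was at 19.7, 28.8, 12.4 and 18.6 CPM against 220, 234 and 301, and differed by -3.66. All 3 were separated by wide gaps. Gabra4 differed by -3.22 and Gabrg3, a gamma subunit, by -2.82. Gabrd, a subunit of receptors outside synapses, fell under the floor with no read base in culture and 178 at P0, at least 34.7-fold higher in cortex with 3 read bases over the culture group as the floor. Gabrb1 and Gabrg1 were under the floor too, with means of 0.108 and 0.148 CPM in culture and 2.9 and 4.35 in cortex.

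Both GABA B genes were lower, Gabbr1 by -1.85 and Gabbr2, the subunit that couples to G proteins, by -2.65. Gabbr1 was at 119, 146, 181 and 138 CPM at day 21 against 487, 531 and 583. Glrb was at 26.9, 17.5, 34.7 and 26.4 CPM against 51.7, 65.5 and 95.7, and differed by -1.39. Every library of culture was below every library of cortex for these genes too. Glra1, the alpha glycine receptor subunit of adult spinal cord, had few read bases at every stage, at most 0.474 CPM in a library.

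Markers of some cell types were lower in culture, as the receptor genes were, and markers of others were mixed or higher. For scale, 42.4% of all features tested were called lower and 37.2% higher at day 12, and 40.5% and 40.2% at day 21. All 7 neuron markers measured, such as Tubb3 and Snap25, were lower in culture at both ages, with median log2 differences of -2.32 and -2.37. At day 12, 5 of the 7 reached the floor in both culture and cortex, and at day 21 all 7 did. Their summed level was 168 to 566 CPM at day 12 against 855 to 1589 at E13.5, and 1367 to 1811 at day 21 against 9128 to 9884 at P0. The 7 dorsal cortex markers, such as Emx1 and Tbr1, were all lower at both ages. Of these, 0 at day 12 and 1 at day 21 reached the floor in both culture and cortex, so their count supports nothing by itself. These 7 markers summed to 7.34 to 14.1 CPM at day 12 and 14 to 16.6 at day 21. In cortex they summed to 508 to 855 CPM at E13.5 and 508 to 747 at P0. The RNA of these markers was thus nearly absent from the culture. Caudal neural genes summed to 9.24 to 21.2 CPM at day 12 and 12.6 to 17.1 at day 21, against at most 1.05 at E13.5 and 0.516 at P0, where 5 and 6 of the 9 had no read base. In ESCs the same genes summed to 27.3 to 66.1 CPM, above both culture stages, and none of the 9 reached the floor to be tested against cortex.

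Markers of GABAergic and ventral forebrain cells summed to 27.1 to 52.8 CPM at day 12 against 33.9 to 129 at E13.5, and to 67.6 to 114 at day 21 against 418 to 575 at P0. Of 6 tested, 4 were lower, 1 higher and 1 not called at day 12, and 6 were lower at day 21. Above the floor in both culture and cortex were 4 at each age, with 2 of them lower at day 12 and 4 at day 21. At day 12 this is near the share over all features. Radial glia and progenitor markers summed to 1594 to 2714 CPM at day 12 against 3224 to 3623, and to 1720 to 1938 at day 21 against 574 to 732. Of these 7 markers, 5 were lower and 0 higher at day 12, and 3 were higher and 2 lower at day 21. Astrocyte markers summed to 96.9 to 104 and 261 to 775 CPM in culture against 303 to 435 and 664 to 993. The 2 tested at day 12 were lower, and of 6 tested at day 21, 2 were higher and 3 lower. Oligodendrocyte lineage markers summed to 261 to 336 and 343 to 495 against 99.9 to 155 and 506 to 666. Of 4 tested at day 12, 3 were higher and 1 lower, and of 7 at day 21, 0 were higher and 5 lower. Above the floor on both sides were 3 and 5, with 1 and 3 of them lower. Vascular, blood, meningeal and microglial markers summed to 312 to 406 CPM at day 12 and 1945 to 2649 at day 21, against 36.9 to 282 at E13.5 and 106 to 165 at P0. At day 12 this list was mixed, with 3 of 7 higher, 2 lower and a median log2 difference of -0.003. At day 21, 5 of 7 were higher and 0 lower. Above the floor on both sides were 5 and 6. Pluripotency markers summed to 9.36 to 43.8 and 7.6 to 16.7 CPM in culture against at most 1.89 and 2.56. The part of these cell types in the receptor differences was not tested.

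Partner genes of the receptors, taken from 5 lists, were measured in the same 2 contrasts. Over all features 42.4% were called lower and 37.2% higher at day 12, and 40.5% and 40.2% at day 21. Genes called higher are named because they were few, chosen after their values were seen. Of transporters for glutamate, GABA and glycine, 7 of 11 tested were lower at day 12 and 1 higher, and 8 of 12 were lower at day 21 and 2 higher. Of these, 10 and 11 reached the floor in both culture and cortex, 6 and 7 of them lower. Slc17a6 and Slc17a7, which load glutamate into vesicles, differed by -4.21 and -3.27 at day 12, and Slc17a7 by -6.56 at day 21, from 230 CPM at P0 to 2.46 in culture. Slc1a1, a neuronal glutamate transporter, differed by -3.42 and -3.47, and Slc6a11, a GABA transporter, by -3.50 at day 21. The higher ones were Slc6a9 (1.22), a glycine transporter, at day 12 and Slc17a8 (1.18) and Slc6a13 (2.07) at day 21. Of transmitter enzymes and chloride cotransporters, 5 of 10 were lower and 1 higher at day 12, and 7 of 10 were lower and 2 higher at day 21, all of them above the floor on both sides. The day 12 count is near the share over all features. Gad2 and Gad1, which make GABA, differed by -2.50 and -1.57 at day 12 and by -2.41 and -1.73 at day 21. Glul, the glutamine synthetase of glia, was higher in culture at both, by 0.89 and 0.65, and Gldc was higher at day 21 by 0.29.

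Of receptor scaffolds, 8 of 14 were lower and 1 higher at day 12, and 15 of 16 were lower and 1 higher at day 21. Above the floor on both sides were 9 and 14, of which 3 and 13 were lower. The other 5 lower at day 12 passed the floor in cortex alone, so they support nothing by themselves. The 3 of 9 at day 12 do not exceed the 42.4% called lower over all features. Dlgap1 and Dlg2, scaffold proteins of the excitatory synapse, differed by -4.87 and -4.72 at day 12 and by -5.59 and -5.52 at day 21. Homer2 differed by -2.49 at day 12 and Dlgap2 by -4.68 at day 21. The exceptions were Dlg4 at day 12 (0.52) and Dlg1 at day 21 (0.55). Of auxiliary subunits that travel with the receptors, 8 of 11 were lower and 2 higher at day 12, and 16 of 16 were lower at day 21, where 10 and 11 were above the floor on both sides and 7 and 11 of these lower. Neto2, a partner of kainate receptors, differed by -4.48 and -4.54, and Neto1 by -4.94 at day 21. Shisa7 and Shisa6 differed by -3.87 and -2.95 at day 12, and Shisa6 by -5.02 at day 21. Kctd12 (0.90) and Olfm2 (1.30) were higher at day 12. Of synaptic adhesion and presynaptic genes, 12 of 14 were lower at day 12 and 17 of 17 at day 21, and none was higher. Here 7 and 13 were above the floor on both sides, 5 and 13 of them lower. Nlgn1, a postsynaptic adhesion protein, differed by -4.41 and -4.28, Snap25, of the release machinery, by -4.08 and -3.75, and Syt1, the calcium sensor of release, by -4.02 and -3.69. The median log2 differences of the 5 lists in this order were -1.34, -0.34, -1.42, -1.14 and -2.34 at day 12 and -1.08, -0.70, -2.17, -2.10 and -2.61 at day 21.

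Within culture, receptor genes rose between day 12 and day 21. Of 13 members tested, 12 rose and 0 fell, against 28.1% of 11278 features called higher and 23.1% lower. Their median log2 change was 2.24, against 0.02 over all features. Gabbr2 was at 0.195, 0.363, 0 and 0.119 CPM at day 12 and at 7.89, 9.51, 10.5 and 5.41 at day 21, a log2 change of 5.56. Gabra5 rose by 4.81 and Grin1 by 3.32, the latter from 0.586, 1.45, 0.898 and 0.237 CPM. Gabrb2 rose by 2.94, Gria2 by 2.40, Grik2 by 2.24 and Gabbr1 by 2.11. Smaller rises were seen in Grik3 (1.67), Glrb (1.35), Grik4 (1.13) and Grik1 (0.89). Grik1 overlapped between the days, and its call was lost without day 21 BJ1 replicate 2 (adjusted p = 0.0697), day 12 JB6 replicate 1 (0.083) or day 21 JB6 replicate 1 (0.116). Grik4 was not called with BJ1 libraries alone (adjusted p = 0.288). Grik5, at -0.13 (SE 0.17, adjusted p = 0.551), was not called, although BJ1 libraries alone gave a fall (-0.42, adjusted p = 0.042). Of the 13, 6 were above the floor on both days, and 5 of these rose. Grm5, without a read base at day 12, was at least 6.77-fold higher at day 21. Neuron markers moved alongside, with 6 of 7 higher, and so did all 6 astrocyte markers and 5 of 7 vascular, blood, meningeal and microglial markers. Only 2 of the astrocyte markers were above the floor on both days. Of radial glia and progenitor markers 0 of 7 were higher and 2 lower. Oligodendrocyte lineage markers were higher in 2 of 6 tested, and GABAergic and ventral forebrain markers in 2 of 4. The part of these cells in the rises was not tested.

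In cortex, 28 of 29 members tested rose between E13.5 and P0 and 0 fell, against 36.5% of 10878 features called higher and 39% lower. The median log2 change was 2.98 over the members and -0.04 over all features, and 14 of the 15 members above the floor at both ages rose. Large changes were seen in Grin3a (6.21), Gabbr2 (5.33), Gabra5 (4.98), Grm5 (4.98) and Grin1 (4.97). Grin3a, for example, went from 0, 0.535 and 1.13 CPM as lowest, median and highest to 33.2, 40.6 and 54.1. Grm7, Grin2c and Grm3 rose by 4.55, 4.40 and 4.28, Gria1 by 3.91, Grid1 by 3.64 and Gabrb2 by 3.63. Next came Grik4 at 3.13, Grik3 at 2.98 and Grm8 at 2.58. The rises of Grik1, Gabbr1, Gabra4, Grid2ip, Gria4, Glrb, Gria2, Grik5 and Gabra2 lay between 1.06 and 2.0. Gabra2 overlapped between the ages and was not called with JB6 libraries alone (adjusted p = 0.1015). Grik2 did not pass, at 0.19 (SE 0.15, adjusted p = 0.239 by edgeR), and its level was already 77.3 to 112 CPM at E13.5. It was called higher with DESeq2 (0.35, adjusted p = 0.0193), without E13.5 BJ1 replicate 2 (0.39, adjusted p = 0.022) and without P0 BJ1 replicate 1 (0.35, adjusted p = 0.045). Neuron markers rose in 6 of 7, and the oligodendrocyte lineage markers in 6 of 7, of which 3 were above the floor at both ages. GABAergic and ventral forebrain markers rose in 6 of 6 tested and astrocyte markers in 4 of 5. Of the 7 dorsal cortex markers 2 rose and 3 fell. Radial glia and progenitor markers fell in 6 of 7, and the part of these cells was not tested.

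The change over time itself was then compared between culture and cortex, as the log2 change from day 12 to day 21 minus that from E13.5 to P0. Of 25 members tested, 9 changed less upward in culture, 3 more, and 13 were not called, against 20% of 11534 features lower and 25.4% higher. The median difference was -0.16 over the members and 0.11 over all features. The balance over all features turned with the scaling and with single libraries, from 2925 higher and 2307 lower to 2504 and 2922 by DESeq2 and 2127 and 2954 without E13.5 JB6 replicate 3, whereas DESeq2 called 12 members and leaving out any 1 library 10 to 12. Among the lower ones were Grin3a (-2.40), Grik4 (-2.004), Grid2ip (-1.92), Grin1 (-1.66), Grid1 (-1.63), Grik3 (-1.31), Grik5 (-1.25) and Grik1 (-1.12). Grik5 shows the form of this. Its mean went from 69.9 ± 16.6 to 63.4 ± 3.91 CPM in culture (SD, n = 4) and from 56.1 ± 8.43 (SD, n = 6) to 122 ± 12.7 (SD, n = 7) in cortex. Higher in culture were Grik2 (2.04), Gabra4 (1.70) and Gria2 (1.12), whose day 12 level was far below E13.5. These 3 averaged 8.5, 1.5 and 7.25 read bases at day 12, under the floor. Grin3a averaged 2.25 at day 12 and 3.83 at E13.5. Such changes depend on the prior count. With the floor required at each of the 4 stages, 6 members were tested, with 3 lower and 0 higher. Grin1 and Grik1 lost their calls without day 12 BJ1 replicate 2 (adjusted p = 0.079 and 0.114), and Grin3a without that library or day 12 JB6 replicate 2 (0.113 and 0.217). The call of Gria2 was lost without any 1 of 8 libraries, with a difference of 0.72 to 1.04. These were replicate 1 of BJ1 at day 12, at day 21 and at P0, replicate 1 of JB6 at day 21, and replicates 2 and 3 of both crosses at E13.5. In 6 of the 8, all but BJ1 replicate 1 at day 12 and day 21, the median over all features also turned, to between -0.09 and -0.07. With JB6 libraries alone 4 members were called, and with male libraries alone 1, where each cortex age has 1 library. 

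**Figure D3:**
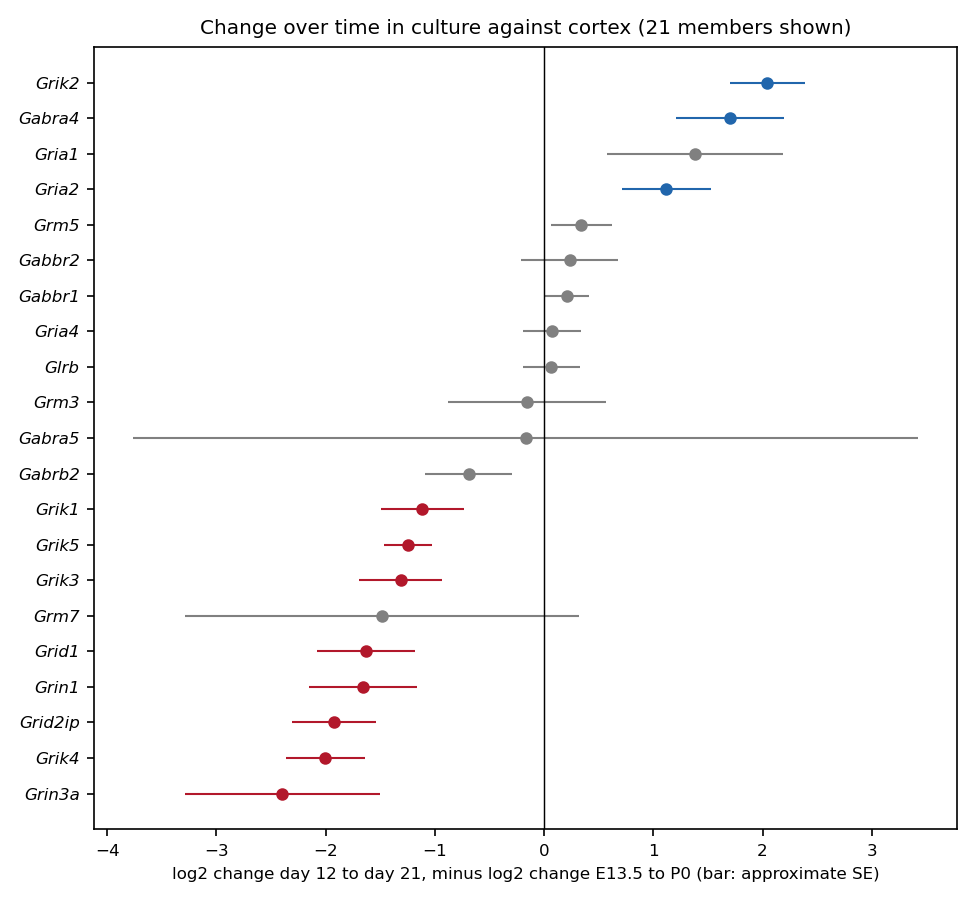
Difference between the log2 change from day 12 to day 21 in culture and that from E13.5 to P0 in cortex, for the 21 members described; bars are approximate standard errors, red is called lower in culture, blue called higher and gray not called. Grin3a is lowest among the called members shown, and Grik2 is highest among them.

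ESCs held 4 receptor genes above the floor, among them Gabbr1, Grik3 and Grik5. Between ESCs and day 12 culture 5 members were tested, 3 fell and 2 rose, against 36.2% of 10565 features called lower and 41% higher. The median log2 change was -1.43 over these 5 and 0.09 over all features. Grik3 was at 88.1, 89.2, 73.4 and 66.5 CPM in ESCs and at 18.8, 21.6, 9.28 and 12.6 at day 12, a log2 change of -2.39 (SE 0.31). Gabbr1 went from 97.2, 94.5, 77.1 and 97.8 CPM to 32.1, 42.4, 24.7 and 37, a change of -1.43. Both were lower at day 12 than in ESCs in every library and higher again at day 21. Grik5 rose from 11.2, 7.2, 16.8 and 8.37 CPM to 67.4, 93.4, 54.5 and 64.2, by 2.67 on the log2 scale (SE 0.19, adjusted p = 3.41e-12 by edgeR). Glrb rose from 1.42, 1.23, 1.25 and 0.598 CPM to 8.01, 12, 8.39 and 12.6, by 3.17. Its libraries did not overlap. Members without a read base in the 4 ESC libraries and present at day 12 were Grik1, at least 19.8-fold higher at day 12, Grik2, at least 9.45-fold, and Gria2, at least 7.62-fold, all with 3 read bases over the ESC group as the floor. Grm6 was at 0, 1.58, 1.87 and 7.37 CPM in ESCs and at most 0.864 in any library of another stage.

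The strain differences also give each member's 2 alleles. No parental bias was called for a member at any stage. The same 4, 7, 19, 15 and 32 members as above were tested from ESCs to P0, with 0 called in each, where 1.4%, 1.78%, 1.38%, 0.49% and 0.548% of all autosomal features tested were called. By limma on log2 ratios, and with a separate library size for each allele, the counts were also 0. Unadjusted edgeR p-values under 0.05 were found for Grik2 at day 21, with a mean maternal share of 38.3% ± 16.7 (SD, n = 4), and Gabra5 at P0, with 48.2% ± 2.91 (SD, n = 7). The mean maternal share of the other members tested lay between 42.2% and 63.3%.

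Strain bias was called for 2 of 4 members in ESCs, for 3 of 7 and 7 of 19 in day 12 and day 21 culture, and for 7 of 15 and 18 of 32 in E13.5 and P0 cortex. Over all autosomal features tested, 44.6%, 35.9%, 34.4%, 45.9% and 48.2% were called. A difference in how well B6 and JF1 reads map would also enter these calls and the B6 shares below. The part of mapping was not tested. In newborn cortex 10 members were biased to B6 and 8 to JF1. That balance moved to 6 and 10 with a separate library size for each allele, and to 7 and 2 with counts divided by 3. Separate sizes also turned it from 4 and 3 to 2 and 5 at day 21 and to 2 and 4 at E13.5. Toward JF1, Grik4 had a B6 share of 25% ± 3.02 (SD, n = 7) and the 7 libraries lay between 21.2% and 30.1% (log2 ratio -1.58, adjusted p = 6.09e-18 by edgeR). Grin2c had 26.9% ± 9.1 and Gabrg1 37.1% ± 9.28. Toward B6, Grm8 had 61.5% ± 8.82, Grm5 57.2% ± 4.8 and Gabbr1 55.9% ± 1.16. The call of Grm8 was lost without P0 BJ1 replicate 1 (adjusted p = 0.0885) or P0 JB6 replicate 1 (0.0648), and with counts divided by 3 (0.107), as was that of Gabrg1 (0.0768). Both crosses showed the same side on average for these 6 genes.

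Grik4 was also JF1-biased at E13.5, at 23.5% ± 3.15 B6 (SD, n = 6) with libraries from 19% to 27.8%. In culture its B6 share was 54.4% ± 5.19 at day 12 and 50.1% ± 4.03 at day 21 (SD, n = 4), not called. The difference between culture and cortex was not tested, and the 2 had different B6 parents. Gria4 was JF1-biased at E13.5, at 31.3% ± 7.4 B6, and Gabrb2 weakly, at 44.5% ± 3.1, a call lost without E13.5 BJ1 replicate 1 (adjusted p = 0.1) or E13.5 JB6 replicate 3 (0.151). Toward B6 at E13.5 were Gria2 at 60.2% ± 3.48, Grik2 at 57.7% ± 2.28 and Glrb at 54.7% ± 4.04. The call of Glrb was lost without E13.5 BJ1 replicate 1, BJ1 replicate 2 or JB6 replicate 2, with adjusted p of 0.0548, 0.0873 and 0.0654.

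Grik3 was the most uneven of the 4 members tested in ESCs. Its B6 share in ESCs was 89.9% ± 1.96 (SD, n = 4), with libraries from 88% to 92.6% in both crosses (log2 ratio 3.16, adjusted p = 6.22e-17 by edgeR). The share was 63.8% ± 3.41 at day 12 and 63% ± 1.98 at day 21, both called, 50.5% ± 5.09 at E13.5, not called, and 55.3% ± 1.37 at P0, called. The ESC libraries thus lay above all others, and the difference between stages was not tested. At day 21 Gabrb2 had a B6 share of 65.6% ± 5.41, and toward JF1 stood Grid1 at 27.6% ± 6.33 and Grik2 at 37.7% ± 16.2. The call of Grid1 was lost without day 21 JB6 replicate 1 (adjusted p = 0.0706). That of Grik2 was lost without day 21 BJ1 replicate 2, JB6 replicate 1 or JB6 replicate 2, with adjusted p of 0.327, 0.314 and 0.0518, and its mean B6 share was 26% in BJ1 and 49.5% in JB6. Gabbr1 leaned to B6 at all 5 stages, with mean shares of 52.7% to 55.9%, and Glrb at day 12 (62.9% ± 9.84), day 21 (55.9% ± 5.45) and E13.5. The call of Gabbr1 was lost in ESCs without BJ1 replicate 1, BJ1 replicate 2 or JB6 replicate 1, at day 12 without BJ1 replicate 2 or JB6 replicate 2, and at day 21 without replicate 1 of either cross, with adjusted p up to 0.495. With separate library sizes for the alleles it was lost at E13.5 (log2 ratio 0.05, adjusted p = 0.423), in ESCs (0.101) and on culture days 12 (0.12) and 21 (0.0864), and with limma at the same 4 stages, and with counts divided by 3 in ESCs and at day 12. It was called under all 11 alternatives run at P0. Counts divided by 3 also lost the calls of Glrb at day 21 and E13.5, Grik2 at day 21 and Gabrb2 at E13.5. That of Glrb was lost at day 12 without BJ1 replicate 1 or JB6 replicate 2, and at day 21 without BJ1 replicate 1, JB6 replicate 1 or JB6 replicate 2, with adjusted p up to 0.4715.

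**Figure D4:**
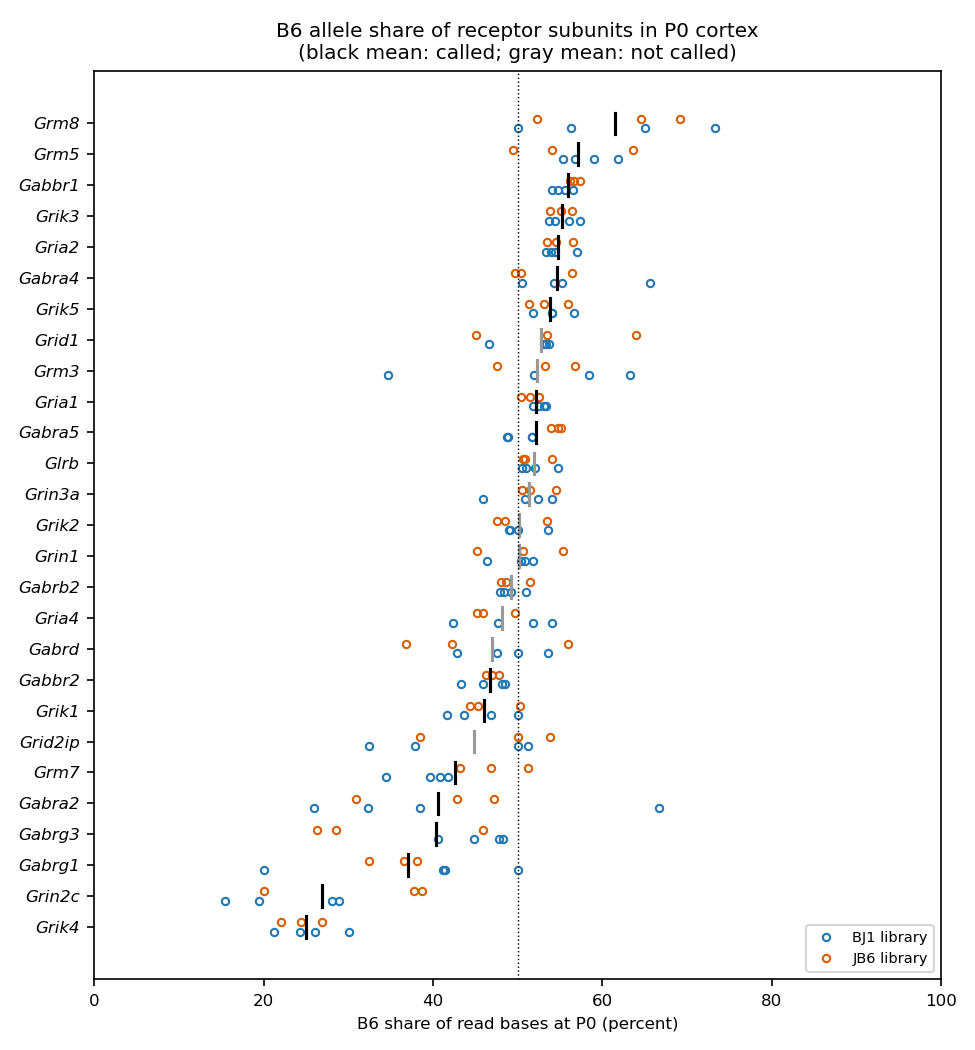
B6 share of read bases in percent in the 7 P0 cortex libraries for the 27 members described, coloured by cross, with the mean over libraries as a bar (black called, gray not called); the dotted line is 50%. Grik4 and Grin2c lie far to the JF1 side in both crosses, and most members lie near the line.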

How the data were processed

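The deposited tables hold counts made by the authors: for each gene and library, the sense-strand read bases that carried the maternal or the paternal base at strain differences. Per the submitters' processing notes, CASAVA 1.8.2, Novoalign, HTSeq, edgeR and the build mm9 were used. Joined names mark differences that lie in 2 genes. A read can cover several differences, so counts are not independent molecules.

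Both alleles were summed, and a gene missing from a stage's table was taken as 0. The P0 table lists 127 features without a read base. edgeR 4.0.16 in R 4.3.3 (TMM, robust quasi-likelihood test, stage and cross as terms) was fitted to all 25 hybrid libraries at once, with Benjamini-Hochberg adjustment over all features of a contrast. The floor was a mean of 20 read bases and calls were made at an adjusted p of 0.05. Alleles were fitted per stage with library, strain and parent as terms. The edgeR fit was tested on simulated data. A further 6 libraries of the E14 line were not analysed here. Alternatives were DESeq2 1.42.0, limma 3.58.1, other scalings and floors, counts divided by 3, subsets by cross or sex, and each library left out. Figures used Python 3.11.15 and matplotlib 3.10.9.

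Values per library are given for up to 10 members by fold in each culture to cortex contrast and for Gria1, Gria2, Grin1, Gabra2, Gabbr1 and Glrb, for partner genes up to 3 per list and contrast, and for strain up to 3 members per direction and stage. Members, lists and this rule were chosen with earlier results of these data known. Some genes enter the counts, summed levels and medians and are not reported here by name. No clear pairing by replicate number was seen: of 22 same-numbered pairs, 2 had a correlation of deviations above 0.1 (range -0.363 to 0.148). Among ESC and culture stages, 2 libraries per cross mirror each other around their mean. Replicates 1 and 2 there give the same value by construction and say little. In cortex the 3 JB6 pairs each correlated best with their own number, at 0.066, 0.121 and 0.148.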

Additional observations from a re-analysis of the deposited data

Results flagged for a closer look

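Within a stage, 4 member values stood apart from the other libraries by Dixon's criterion, where 77 groups were tested and chance gives about 1 in 20, or 3.85. Among these, Gabbr1 was at 77.1 CPM in ESC JB6 replicate 1, against 94.47 to 97.82 in the other ESC libraries. Day 21 JB6 replicate 1 was high for Grik2 (10.68 CPM, others 4.689 to 5.241) and for Grin3a (11.15 CPM, others 2.344 to 3.719).

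The change over time differed between culture and cortex for 12 members by edgeR's test of the difference itself, given here as the log2 change from day 12 to day 21 minus that from E13.5 to P0. Among them it was -2.397 for Grin3a, -2.004 for Grik4, -1.922 for Grid2ip, -1.655 for Grin1 and -1.634 for Grid1. It was -1.312 for Grik3, -1.247 for Grik5 and -1.116 for Grik1. It was 1.119 for Gria2, 1.705 for Gabra4 and 2.044 for Grik2. At day 12 Gria2, Gabra4 and Grik2 were each under the floor, as was Grin3a at day 12 and E13.5.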

How the results depend on the processing

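Of 4418 values of single members under an alternative, 4264 kept their direction and side of the threshold, 130 lost a call, 24 gained one and 0 reversed. Counts of members called moved by over 1.5 times as follows. Without a floor, 27 were called for day 12 against E13.5 (23 lower, 4 higher, of 39 tested), 23 for day 12 against ESCs, 28 for day 21 against day 12 and 4 for strain in ESCs. With the floor required at each stage, which tests fewer members, the counts were 4 for day 12 against E13.5, 19 for day 21 against P0, 5 for day 21 against day 12, 14 for P0 against E13.5 and 3 for the difference in change over time. That difference gave 4 with JB6 libraries only and 1 with male libraries only, and day 12 against E13.5 gave 8 with male libraries only. For strain, ESCs gave 1 with counts divided by 3, with limma or with separate library sizes, limma gave 1 at day 12 and 4 at day 21, and counts divided by 3 gave 9 at P0. Leaving out 1 library gave 13 to 14, 29 to 31, 5, 9 to 15 and 27 to 29 calls in the 5 contrasts in the order of day 12 and day 21 against cortex, day 12 against ESCs, day 21 against day 12 and P0 against E13.5. It gave 10 to 12 for the change over time, 0 for parental bias, and for strain 1 to 2 in ESCs, 1 to 4 at day 12, 3 to 6 at day 21, 5 to 8 at E13.5 and 13 to 16 at P0. With the replicate block the counts were 13, 30, 5, 12 and 28 in the same order and 11 for the change over time, where Gria2 lost its call (1.14, adjusted p = 0.0506). Of 6 cortex pairs of libraries, 3 correlated best with their own number. The median of all features moved by over 0.1 for several contrasts. Day 12 against E13.5 went from -0.11 to 0.01 (upper quartile), 0.02 (male libraries only) and up to 0.004 without 1 E13.5 library. Day 12 against ESCs went from 0.09 to 0.26 (library totals), 0.24 (no floor), -0.09 (floor at each stage), -0.01 (no mitochondrial genes) and -0.02 (BJ1 only), and day 21 against day 12 from 0.02 to 0.13 (no floor). P0 against E13.5 went from -0.04 to 0.11 (DESeq2), 0.06 (BJ1 only), 0.07 (no floor) and up to 0.098 without 1 library. Day 21 against P0 went from -0.02 to -0.12 without day 21 JB6 replicate 1. The change over time went from 0.11 to -0.03 (DESeq2), 3.5e-05 (upper quartile), -0.04 (BJ1 only), -0.05 (male only) and as low as -0.09 without 1 library. Members with few read bases at a stage have differences that depend on the prior count.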
